A study of Homo sapiens with 30 samples.

Results

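Endoplasmic reticulum (ER) folding and unfolded protein response (UPR) genes were examined as a list of 31 genes by symbol, each taken from the deposited tables by an exact match of its symbol, out of 21112 genes listed per library. All 31 were found, and all 31 passed the filter on low counts in every comparison below, so no member was dropped. RNA from 4 established diffuse large B-cell lymphoma (DLBCL) cell lines was sequenced after treatment with AZD8186, an inhibitor of the β and δ isoforms of PI3K, at 0.5 µM, or with DMSO as control. OCI-Ly10 and TMD8 are activated B-cell-like (ABC) lines, and HT and K422 are germinal center B-cell-like (GCB) lines. The labels give RPMI-1640 with 10% FCS as the medium of all 4 lines. The study's methods instead name Iscove's medium for OCI-Ly10 and TMD8, in which case medium and subtype cannot be told apart. Each line was sampled at 6, 12, 18 and 24 h, except TMD8, which has no 12 h libraries, and each combination of line, treatment and time is 1 library, giving 30 libraries in 15 pairs of AZD8186 and DMSO. The labels call the controls DMSO, whereas the description of the series calls them untreated. Each subtype was represented by 2 lines, and whether the time points came from separate cultures is not stated, so a p-value here covers the scatter among libraries, part of which may be technical.

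Secreted and membrane proteins enter the ER through the SEC61 channel and are folded there by chaperones, disulfide isomerases and lectins. When unfolded proteins accumulate, the sensors IRE1 (encoded by ERN1), ATF6 and PERK raise the transcription of these folding factors and of the machinery that pulls misfolded proteins out for degradation (ER-associated degradation, ERAD). IRE1 acts by splicing the mRNA of the transcription factor XBP1, and in B-lineage cells this arm is known for expanding the secretory apparatus of plasma cells. The gene-level values used here do not separate spliced from unspliced XBP1, and ATF6 and IRE1 are activated as proteins, so a mRNA level is not a measure of pathway activity.

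The ER stress response element (ERSE, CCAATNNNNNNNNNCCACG), its second form (ERSE-II, ATTGGNCCACG) and the unfolded protein response element (UPRE, TGACGTGG) are the letters through which ATF6 and XBP1 are known to act as DNA-binding factors, and they were searched on both strands in windows of 300 bases, from 250 before to 50 after each RefSeq start site (GRCh38.p14). A window was found for 28 members. DERL1, DERL3 and PDIA3 had none. ERSE letters were in the windows of 7 of the 28 members (HSPA5, HSP90B1, PDIA6, CALR, CANX, CRELD2 and XBP1) and in 25 of all 27305 genes (0.0916%). ERSE-II letters were in 3 members (HYOU1, SDF2L1 and HERPUD1) and in 19 of all genes (0.0696%). UPRE letters were in 3 members (HYOU1, DNAJC10 and SSR3) and in 253 of all genes (0.927%), and the UPRE of HYOU1 overlaps one of its ERSE-II matches. The core letters CCACG, which lie inside ERSE and ERSE-II and, reversed, inside UPRE, was in 22 members (78.6%) and in 42.1% of all genes, so their presence sets few members apart.

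The 250 bases before the start site are shown for HSPA5, the member whose mRNA changed with the smallest p in the GCB lines, for SDF2L1, which carries ERSE-II, and for SYVN1, the member with the smallest p in the ABC lines, which has neither element and whose CCACG letters are in capitals instead. In the first pair capitals mark ERSE or ERSE-II, and all are written 5′ to 3′ along the gene's strand.
HSPA5, chr9:125241344-125241593, minus strand: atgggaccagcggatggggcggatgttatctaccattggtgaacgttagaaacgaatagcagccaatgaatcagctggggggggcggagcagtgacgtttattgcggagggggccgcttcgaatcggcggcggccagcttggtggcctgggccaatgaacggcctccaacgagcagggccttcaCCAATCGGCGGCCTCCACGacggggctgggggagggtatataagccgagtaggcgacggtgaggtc
SDF2L1, chr22:21642052-21642301, plus strand: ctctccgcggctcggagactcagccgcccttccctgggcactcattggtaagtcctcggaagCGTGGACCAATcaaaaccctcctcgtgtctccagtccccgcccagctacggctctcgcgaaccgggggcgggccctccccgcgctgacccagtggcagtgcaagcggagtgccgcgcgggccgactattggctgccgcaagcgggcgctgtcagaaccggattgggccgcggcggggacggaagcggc
SYVN1, chr11:65134520-65134769, minus strand: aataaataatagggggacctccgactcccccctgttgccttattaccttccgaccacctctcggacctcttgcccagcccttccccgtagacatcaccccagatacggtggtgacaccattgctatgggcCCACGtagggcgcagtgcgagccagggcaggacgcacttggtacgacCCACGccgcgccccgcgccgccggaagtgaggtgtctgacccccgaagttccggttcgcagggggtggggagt
The other matches are shown with 10 bases on each side and the element in capitals, so that the shared letters can be compared. CANX has 3 overlapping windows that hold the same element, and SSR3 has its UPRE in 1 of 3 windows. Those on the opposite strand read as the reverse complement.
HSP90B1, chr12:103930206-103930244, plus strand: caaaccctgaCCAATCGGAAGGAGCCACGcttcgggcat
HSP90B1, chr12:103930311-103930349, plus strand: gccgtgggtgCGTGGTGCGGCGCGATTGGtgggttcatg
PDIA6, chr2:10812843-10812881, minus strand: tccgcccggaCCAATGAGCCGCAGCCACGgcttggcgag
CALR, chr19:12938374-12938412, plus strand: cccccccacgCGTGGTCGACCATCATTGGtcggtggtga
CANX, chr5:179698768-179698806, plus strand: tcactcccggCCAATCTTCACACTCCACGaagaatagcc
CRELD2, chr22:49918544-49918582, plus strand: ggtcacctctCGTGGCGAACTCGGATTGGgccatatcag
XBP1, chr22:28800593-28800631, minus strand: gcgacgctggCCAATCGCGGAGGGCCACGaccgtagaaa
HYOU1, chr11:119057370-119057400, minus strand: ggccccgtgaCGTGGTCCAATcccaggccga
HYOU1, chr11:119057264-119057294, minus strand: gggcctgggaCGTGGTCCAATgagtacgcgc
HERPUD1, chr16:56932015-56932045, plus strand: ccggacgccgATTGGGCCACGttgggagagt
DNAJC10, chr2:182716122-182716149, plus strand: gcgcacaccgCCACGTCAacctaaacct
SSR3, chr3:156554149-156554176, minus strand: ctgataacagCCACGTCAgcaaggaaac
A match describes the letters only. It does not show that a factor was bound in these cells.

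**Figure D1:**
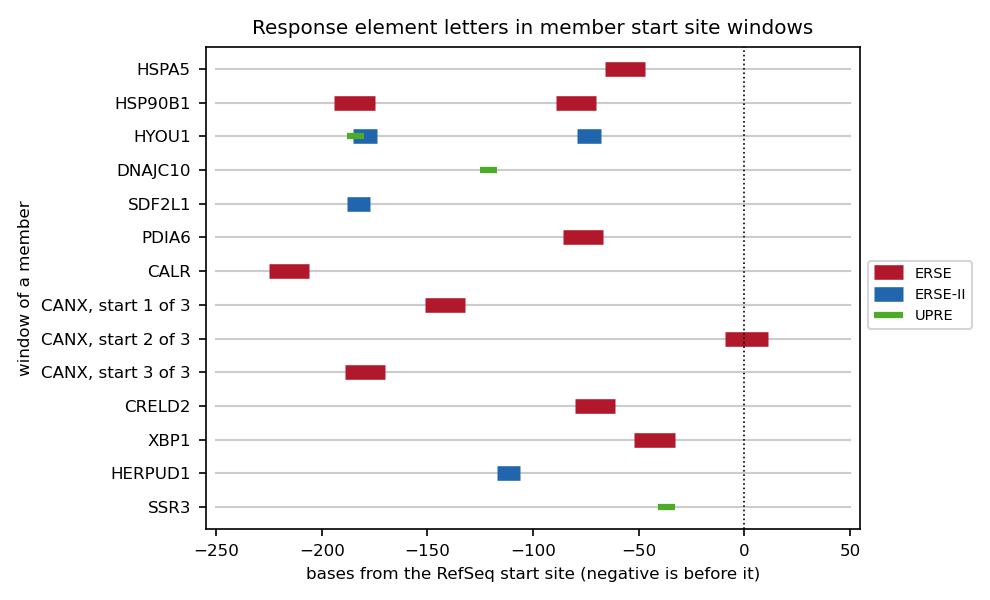
Positions of the ERSE (red), ERSE-II (blue) and UPRE (green) letters in the start site windows of the 12 members that hold any. The horizontal axis gives bases from the RefSeq start site and each grey line is 1 window of 300 bases, with 3 windows for CANX. The ERSE of HSPA5 ends 48 bases before the start site and that of XBP1 ends 34 bases before it.

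The total count per library ranged from 15820230 to 23579029, and the 31 members took 0.482% to 0.927% of it. Expected counts were above 50 in every library for 30 members. ERN1 had the fewest, with 18 to 346, so its values carry the largest counting error. Paralogous copies could take reads from a few members: GENCODE 29 names 2 pseudogenes after SSR1, 2 after PDIA3 and 1 after XBP1. All 6 B-cell markers examined (among them MS4A1, CD79A and PAX5) reached 1 TPM in all 4 lines, and summed to 1218 to 3258 TPM. Of 8 T-cell markers, those that reached 1 TPM were CD2 in OCI-Ly10, CD4 in TMD8, CD3D and CD3G in HT, and CD3D, CD3E and CD3G in K422, where the list summed to 162 to 184 TPM and CD2 and CD28 were at 0. Of 8 myeloid markers only LYZ reached 1 TPM, in HT and K422. Of 9 stroma markers VIM did so in both ABC lines, PECAM1 in HT, and PECAM1 and DCN in K422. Ribosomal protein genes took 21.4% to 25.8% of the counts in the AZD8186 libraries of the ABC lines and 17.5% to 23.2% in their DMSO libraries, against 13.6% to 18.3% and 11.3% to 17.1% in the GCB lines. A larger share of ribosomal protein genes lowers the TPM of all other genes, so levels below are given in TPM, a unit per length and per library total, and tests rest on counts scaled by TMM.

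By the median over the DMSO libraries of both ABC lines, CALR, SEC61B, SEC61G and HSP90B1 were the 4 most abundant members there. These 4 had medians of 677, 1179, 1134 and 400 TPM over the 7 ABC libraries and 1027, 457, 488 and 281 TPM over the 8 GCB libraries. By the median over the GCB libraries PDIA3 and HSPA5 stood above HSP90B1. In K422 alone HSPA5 was below HSP90B1, with medians of 273 against 310 TPM. In TMD8 alone P4HB was above HSP90B1, with medians of 298 against 279 TPM. SEC61G had a median of 392 TPM in TMD8 and 1195 TPM in OCI-Ly10, against 486 TPM in HT and 491 TPM in K422. ERN1 was the least abundant, with 0.87 and 0.39 TPM. Of 30 members that reached a median of 1 TPM, 13 had every GCB library above every ABC library, against 28.5% of the 9596 genes compared in the same way. Among them PDIA3, a disulfide isomerase for glycoproteins, had 134 TPM in the ABC and 364 TPM in the GCB libraries (median), and SDF2L1, a co-chaperone of the HSPA5 complex, had 85.9 and 218 TPM. HSPA5 (also known as BiP) had 166 and 287 TPM. XBP1 had 41.8 and 69.0 TPM, and its HT and K422 libraries overlapped. For 3 members every ABC library was above every GCB library, against 5.60% of all genes. These were PDIA6, HERPUD1 and SEC61B, at 329 against 173, 72.3 against 34.3 and 1179 against 457 TPM. For the other members the libraries of the subtypes overlapped, although CALR, CANX, DNAJC3, DNAJB9, PDIA4, CRELD2 and ATF6 had both GCB lines and P4HB both ABC lines at the top of the order by line. HYOU1 was highest in HT and ATF6 in K422, each apart from the next line, while SEC61G and EDEM1 were highest in OCI-Ly10. With 2 lines per subtype, a difference between subtypes and one between lines cannot be told apart.

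**Figure D2:**
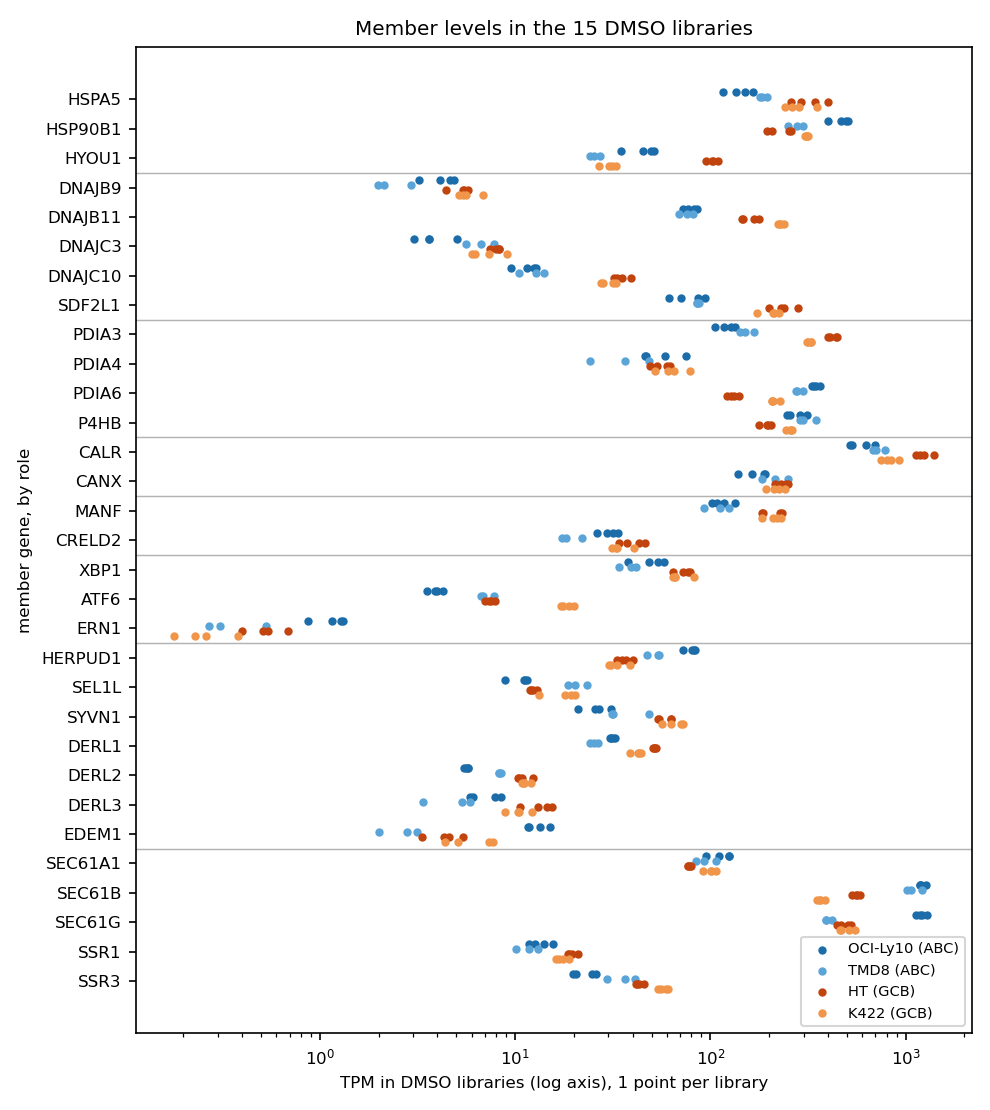
Level of each member in the 15 DMSO libraries, in TPM on a log axis, with 1 point per library coloured by cell line and members grouped by role. PDIA3 and SDF2L1 lie higher in HT and K422 and SEC61B lies higher in OCI-Ly10 and TMD8, with no overlap between the subtypes.

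Most of these genes were lower with AZD8186 in the GCB lines. In HT and K422 together 21 of 31 members were lower with AZD8186 (adjusted p under 0.05, edgeR quasi-likelihood F test), where 23.5% of all 10965 genes tested were lower, and 3 members were higher (DNAJB9, SYVN1 and DERL3), where 25.9% of all genes were. The median log2 fold change of the members was -0.33, beside 0.025 over all genes tested. In OCI-Ly10 and TMD8 together 5 members were lower (HSPA5, DNAJB11, PDIA6, MANF and EDEM1), where 13.8% of 11419 genes were, and 4 were higher (ERN1, SYVN1, DERL3 and SEC61B), where 15.3% were, so the members were called at about the rate of all genes. Their median was -0.069, beside 0.0072 over all genes. Of the members lower in the ABC lines, 4 were lower in the GCB lines too, 2 were higher in both (SYVN1 and DERL3), 17 were lower in the GCB lines without a call in the ABC lines, and no member was called in opposite directions.

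The count for the GCB lines was 22 lower and 3 higher on log2(TPM + 1) with limma, and 20 to 21 lower when each pair of libraries was left out in turn. The count for the ABC lines depended on scaling. In the GCB lines 5163 of 10965 genes were called on log2(TPM + 1). Of these calls 59.6% were lower, against 47.6% on TMM-scaled counts. In the ABC lines 17 members were lower and 2 higher on log2(TPM + 1), with the median of all genes at -0.15. On that scale 4899 of 11419 genes were called in the ABC lines, and 87.3% of these calls were lower, against 47.4% on TMM-scaled counts. With ribosomal protein and ribosomal RNA genes left out of the TPM, 7 members were lower and 3 higher. There 3168 of 11325 genes were called, and 60.0% of calls were lower. Relative to the median of all genes, the median of the members in the ABC lines was -0.076 on counts and -0.099 on log2(TPM + 1), and that in the GCB lines was -0.35 and -0.33. In bulk RNA, less RNA per cell and fewer cells of a kind cannot be told apart.

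**Figure D3:**
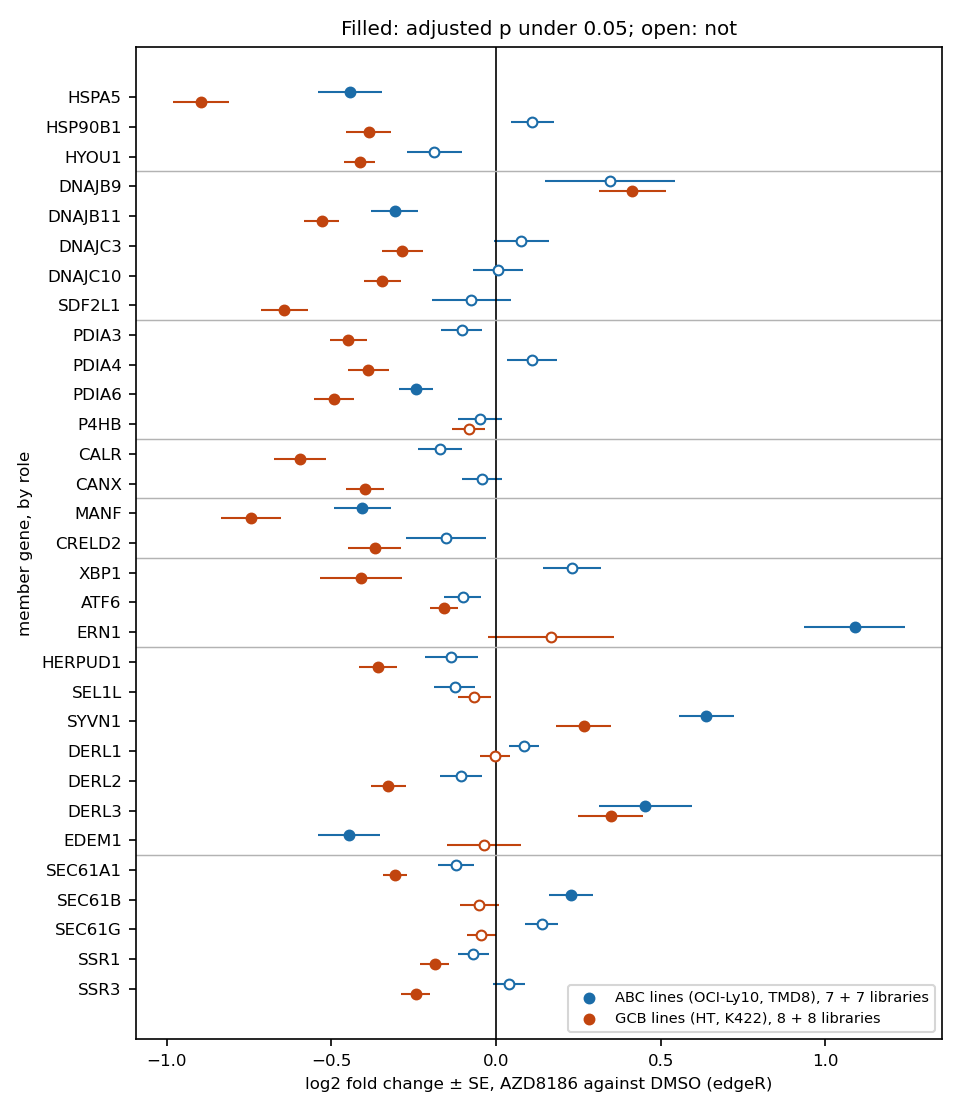
Log2 fold change of AZD8186 against DMSO (point) and its SE (bar) for each member, in the ABC lines (blue, 7 against 7 libraries) and the GCB lines (orange, 8 against 8), with filled points past adjusted p 0.05 and open points not. Nearly all chaperones, isomerases and lectins lie left of 0 in the GCB lines, while ERN1 and SYVN1 lie furthest right in the ABC lines.

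HSPA5 (chr9:125234853-125241330, minus strand, GRCh38, GENCODE 29), the major HSP70 of the ER, had the smallest p of the members in the GCB lines and was below DMSO in all 15 pairs. In HT it had 256, 159, 171 and 186 TPM with AZD8186 at 6, 12, 18 and 24 h and 402, 258, 290 and 343 TPM with DMSO. In K422 it had 142, 113, 123 and 128 TPM against 285, 262, 240 and 352 TPM. The groups did not overlap in HT by a small margin, 256 against 258 TPM, and stood well apart in K422. In OCI-Ly10 it had 88.9, 84.7, 107 and 104 TPM against 116, 136, 166 and 151 TPM. In TMD8, at 6, 18 and 24 h, it had 72.4, 140 and 130 TPM against 179, 195 and 185 TPM. In both ABC lines the 2 groups did not overlap, and the 6 h AZD8186 library of TMD8 had the lowest value of all 30 libraries. The log2 fold change was -0.90 ± 0.085, adjusted p = 1.82e-06 in the GCB lines and -0.44 ± 0.098, adjusted p = 0.00453 in the ABC lines (edgeR). HSPA5 was the 1 member lower in all 4 lines tested singly. In TMD8 that call rested on the 6 h pair, with a log2 ratio of -1.22 against -0.19 at 18 and at 24 h. Without the 6 h pair 0 members were lower in TMD8.

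The other large chaperones were lower in the GCB lines and not called in the ABC lines. HYOU1, the large HSP70 that exchanges the nucleotide of HSPA5, had a log2 fold change of -0.41 ± 0.047, adjusted p = 8.80e-06 in the GCB lines and -0.19 ± 0.084, adjusted p = 0.108 in the ABC lines (edgeR). HSP90B1 (GRP94), the HSP90 of the ER, was lower in all 8 GCB pairs at -0.39 ± 0.068, adjusted p = 0.000308 and above 0 in 6 of 7 ABC pairs at 0.11 ± 0.065, adjusted p = 0.222. The difference between the 2 responses was -0.48 ± 0.078, adjusted p = 0.000413 for HSP90B1. For HYOU1 that difference was not called, and HYOU1 was below 0 in 6 of 7 ABC pairs.

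Of the 5 J-domain co-chaperones and their partners, 4 were lower in the GCB lines and DNAJB9 was higher. SDF2L1 had the largest decrease of this role, with -0.64 ± 0.071, adjusted p = 7.02e-06, and DNAJB11 (ERdj3), with which it forms a complex that keeps HSPA5 clients soluble, had -0.53 ± 0.054, adjusted p = 3.37e-06 (edgeR). DNAJC3 and DNAJC10, which regulate PERK and reduce disulfides, were lower at -0.28 ± 0.062 and -0.35 ± 0.057, and had 0.077 ± 0.083 and 0.0067 ± 0.076 in the ABC lines. DNAJB9 (ERdj4), which recruits HSPA5 to IRE1 and so restrains it, moved the other way at 0.41 ± 0.10, adjusted p = 0.00330, with 0.57 to 0.81 in the K422 pairs and -0.14 to 0.38 in the HT pairs. It had 9.15, 7.80, 8.48 and 9.83 TPM against 5.15, 5.40, 5.63 and 6.85 TPM in K422, where the groups did not overlap. In the ABC lines DNAJB11 was lower at -0.31 ± 0.072, adjusted p = 0.00618, and DNAJB9 had 0.35 ± 0.20, adjusted p = 0.201. SDF2L1 in the ABC lines was -0.91 in the 6 h TMD8 pair and 0.45 and 0.38 in the later TMD8 pairs, so the ABC value of -0.075 ± 0.12 is an average over opposite signs.

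Of the 4 disulfide isomerases 3 were lower in the GCB lines. PDIA6 had -0.49 ± 0.061, adjusted p = 1.69e-05 in the GCB and -0.24 ± 0.051, adjusted p = 0.00363 in the ABC lines (edgeR), and was below 0 in all 15 pairs. PDIA3 and PDIA4 had -0.45 ± 0.056 and -0.39 ± 0.062 in the GCB lines and -0.10 ± 0.062 and 0.11 ± 0.076 in the ABC lines, neither of the latter past the threshold. P4HB, the archetypal protein disulfide isomerase, was not called in either subtype, at -0.084 ± 0.050 in GCB and -0.049 ± 0.066 in ABC lines. PDIA4 (chr7:149003062-149028641, minus strand), which reduces and re-forms disulfides, was the member whose response differed with the smallest p between the subtypes. It had 54.4, 35.9, 43.9 and 44.7 TPM with AZD8186 and 59.9, 53.4, 49.0 and 61.9 TPM with DMSO in HT. It had 50.7, 33.8, 43.8 and 45.5 TPM against 61.0, 52.0, 65.0 and 78.3 TPM in K422. Each AZD8186 library was below its own DMSO library, in both lines, though the 2 groups overlapped in HT. PDIA4 had 46.5, 35.2, 48.7 and 68.6 TPM against 46.0, 46.7, 58.2 and 75.1 TPM in OCI-Ly10. It had 24.9, 39.0 and 48.2 TPM against 24.3, 36.5 and 48.3 TPM in TMD8. In both ABC lines the time points spanned more than the treatments, with 24 h the highest in each treatment. The difference, GCB minus ABC, was -0.51 ± 0.080, adjusted p = 0.000291 (edgeR), and in TMD8 alone PDIA4 was higher at 0.28 ± 0.089. The TPM of each TMD8 pair were close, and that call was lost on log2(TPM + 1), at 0.042 (adjusted p = 0.823, limma), and at 0.23 (adjusted p = 0.0956) with ribosomal protein and ribosomal RNA genes left out of the TPM.

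Both lectin chaperones, which hold glycoproteins during folding, were lower in the GCB lines. CALR (calreticulin) had -0.60 ± 0.080, adjusted p = 3.49e-05 and CANX (calnexin) had -0.40 ± 0.057 (edgeR). In the ABC lines CALR had -0.17 ± 0.067, adjusted p = 0.0675, which passed the threshold with DESeq2 at adjusted p = 0.0365 and without the 18 h TMD8 pair at adjusted p = 0.0405, and CANX had -0.042 ± 0.060. The difference between the responses was -0.33 ± 0.072, adjusted p = 0.00439 for CANX and -0.43 ± 0.10, adjusted p = 0.00726 for CALR.

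MANF, a small secreted protein that stabilises HSPA5 complexes, was lower in both subtypes, with -0.74 ± 0.091, adjusted p = 1.50e-05 in the GCB and -0.41 ± 0.086, adjusted p = 0.00376 in the ABC lines (edgeR). It was below 0 in all 15 pairs, from -1.17 to -0.36 in the GCB and -0.62 to -0.065 in the ABC pairs. In K422 it had 155, 112, 85.6 and 78.4 TPM at 6, 12, 18 and 24 h against 230, 220, 183 and 210 TPM, with the lowest AZD8186 values at the later times. In OCI-Ly10 it had 72.3, 70.4, 70.5 and 73.0 TPM against 109, 101, 117 and 134 TPM, and the groups overlapped in neither line. CRELD2, a secreted folding factor with isomerase activity, was lower in the GCB lines at -0.37 ± 0.081. In the ABC lines it had -0.15 ± 0.12, with -0.85 in the 6 h TMD8 pair and 0.42 and 0.24 at 18 and 24 h.

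Of the sensors and the transcription factor, XBP1 and ATF6 were lower in the GCB lines and ERN1 was higher in the ABC lines. XBP1 (chr22:28794555-28800597, minus strand) had 50.7, 49.5, 54.7 and 53.1 TPM with AZD8186 and 72.2, 64.5, 78.6 and 76.5 TPM with DMSO in HT, at 6, 12, 18 and 24 h. In K422 it had 32.1, 35.4, 64.1 and 78.4 TPM against 64.6, 65.7, 65.8 and 82.2 TPM. XBP1 was thus below DMSO with no overlap in HT, and in K422 it was below DMSO at 6 and 12 h and close to it at 18 and 24 h. In OCI-Ly10 it had 36.9, 50.9, 56.3 and 61.5 TPM against 37.8, 48.4, 54.2 and 58.0 TPM. In TMD8, at 6, 18 and 24 h, it had 29.1, 47.3 and 40.3 TPM against 33.9, 41.8 and 39.2 TPM. In both ABC lines the 2 groups overlapped, with 5 of 7 pairs above 0 on the log2 CPM scale. The log2 fold change was -0.41 ± 0.12, adjusted p = 0.0125 in the GCB lines, and the call was lost without the 12 h K422 pair (adjusted p = 0.0547). It was 0.23 ± 0.088, adjusted p = 0.0636 in the ABC lines, with adjusted p = 0.0330 when the pair was used as a replicate block, and on log2(TPM + 1) it was 0.025 there. The difference between the subtypes was -0.65 ± 0.16, adjusted p = 0.00901 (edgeR).

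ERN1 (chr17:64039142-64130819, minus strand), which encodes the kinase and nuclease IRE1, was the member with the largest change in the ABC lines. Its TPM were 1.35, 1.93, 2.14 and 2.83 with AZD8186 and 0.870, 1.32, 1.15 and 1.29 with DMSO in OCI-Ly10. In TMD8 they were 0.830, 0.600 and 0.720 against 0.310, 0.270 and 0.530. The level was higher in all 7 pairs, and in both lines the AZD8186 libraries were above all DMSO libraries. The log2 fold change was 1.09 ± 0.15, adjusted p = 0.000296 in the ABC lines (edgeR), and on log2(TPM + 1), where low values are compressed, it was 0.42 (adjusted p = 0.00175). In K422 the TPM were 0.260, 0.240, 0.390 and 0.470 against 0.260, 0.230, 0.380 and 0.180, and the 24 h pair stood apart at a log2 ratio of 1.55. In the GCB lines the log2 fold change was 0.17 ± 0.19, adjusted p = 0.484, and -0.0070 without that pair. The response differed between the subtypes by -0.87 ± 0.24, adjusted p = 0.0175. ATF6 had -0.16 ± 0.042, adjusted p = 0.00657 in the GCB lines and -0.10 ± 0.056, adjusted p = 0.193 in the ABC lines, and its difference of -0.044 ± 0.057 changed sign on log2(TPM + 1), to 0.060.

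Among the 7 ERAD genes SYVN1 and DERL3 were higher in both subtypes, while HERPUD1 and DERL2 were lower in the GCB lines and EDEM1 in the ABC lines. SYVN1 (HRD1; chr11:65121780-65134533, minus strand), the membrane ubiquitin ligase of ERAD, was the member with the smallest p in the ABC lines. It had 26.6, 31.9, 36.0 and 39.7 TPM with AZD8186 and 21.1, 27.1, 25.6 and 30.9 TPM with DMSO in OCI-Ly10. In TMD8 it had 45.1, 57.4 and 56.7 TPM against 31.8, 31.4 and 48.3 TPM. Each AZD8186 library was above its own DMSO library, while the groups overlapped across time points in both lines. In HT it had 56.1, 54.8, 69.1 and 68.5 TPM against 53.6, 54.3, 63.2 and 62.8 TPM. In K422 it had 59.8, 66.8, 107 and 103 TPM against 62.9, 56.6, 71.0 and 72.8 TPM. SYVN1 in HT was slightly above DMSO at each time, and in K422 the 18 and 24 h AZD8186 libraries stood above all others. The log2 fold change was 0.64 ± 0.083, adjusted p = 0.000165 in the ABC lines and 0.27 ± 0.083, adjusted p = 0.0146 in the GCB lines (edgeR), and the GCB call was lost without the 18 h or the 24 h K422 pair (adjusted p = 0.0576 and 0.0563). The difference, GCB minus ABC, was -0.38 ± 0.12, adjusted p = 0.0414.

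**Figure D4:**
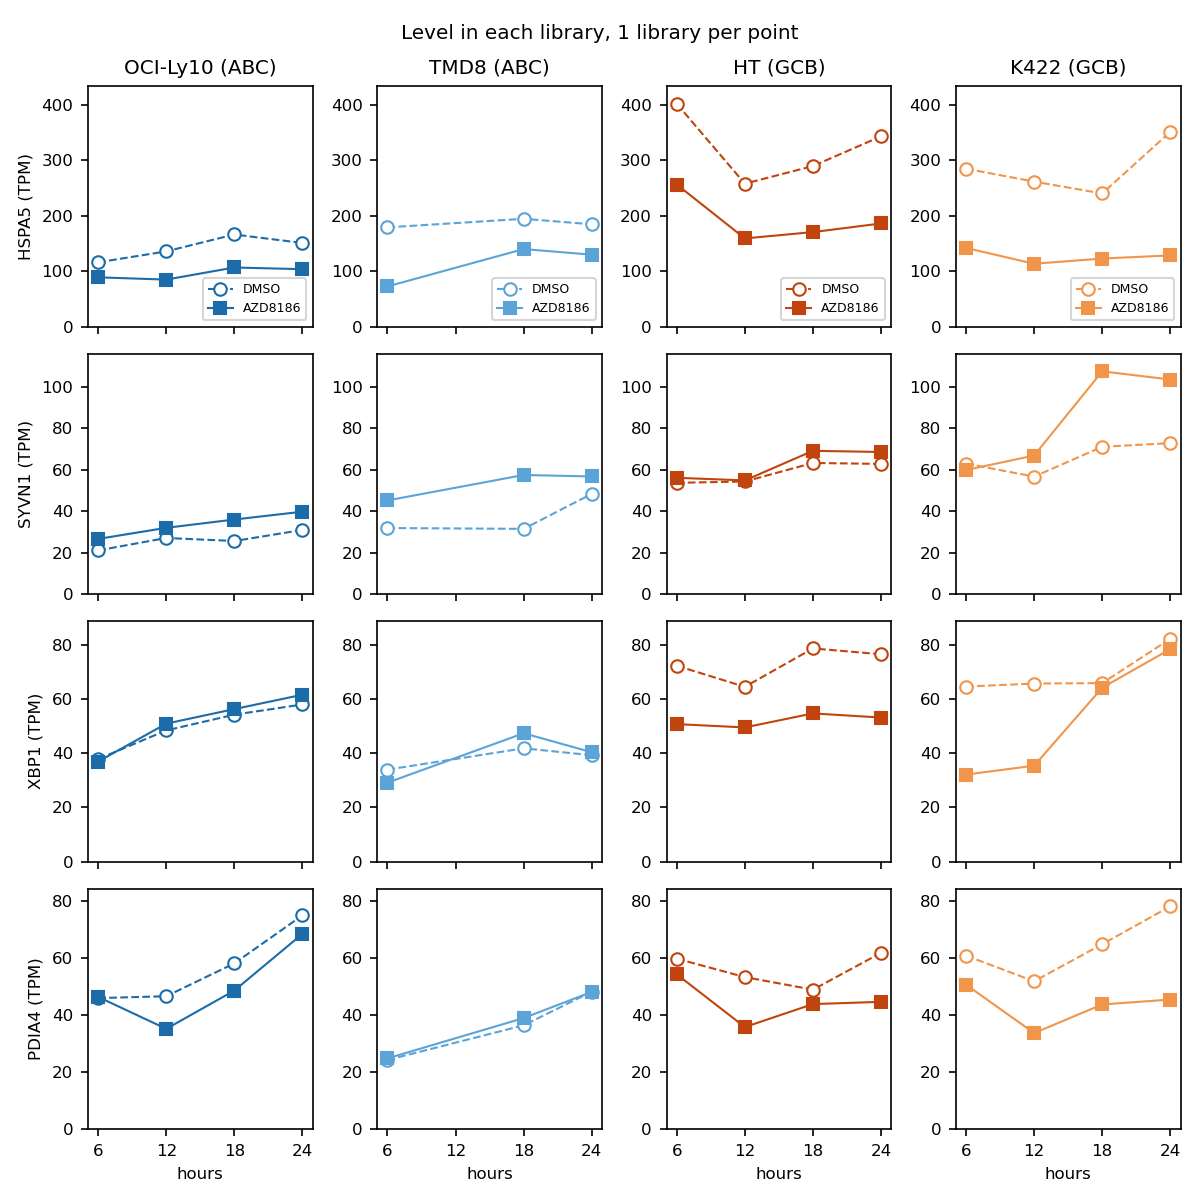
Level in TPM (vertical axis, from 0) by hours of culture (horizontal axis) of HSPA5, SYVN1, XBP1 and PDIA4 in each cell line, with 1 library per point, open circles for DMSO and filled squares for AZD8186. HSPA5 lies below DMSO in every line, SYVN1 above it in both ABC lines, and XBP1 in K422 starts at 32.1 TPM against 64.6 TPM at 6 h and reaches 78.4 TPM against 82.2 TPM at 24 h.

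DERL3, one of the derlins that form the exit channel, was higher in both subtypes, at 0.45 ± 0.14, adjusted p = 0.0272 in the ABC and 0.35 ± 0.099, adjusted p = 0.00897 in the GCB lines (edgeR). DERL3 was called in no line tested singly. It is a low member, with 58 to 397 counts per library, and the ABC call was lost on log2(TPM + 1) (0.13, adjusted p = 0.303) and without any of 4 pairs (OCI-Ly10 at 12, 18 or 24 h, and TMD8 at 18 h; adjusted p = 0.0640 to 0.0923). DERL1 was called in neither subtype, with -0.0024 ± 0.046 in GCB and 0.084 ± 0.046 in ABC lines, while DERL2 was lower in the GCB lines at -0.33 ± 0.053 and had -0.11 ± 0.064 in the ABC lines. HERPUD1, which helps assemble the SYVN1 complex, was lower in the GCB lines at -0.36 ± 0.058, adjusted p = 0.000151 and had -0.14 ± 0.080 in the ABC lines. SEL1L, the partner of SYVN1, was called in neither (-0.066 ± 0.050 and -0.13 ± 0.062). EDEM1, which trims the sugars of glycoproteins for disposal, had 9.82, 7.03, 7.70 and 9.91 TPM with AZD8186 and 11.8, 11.6, 13.5 and 15.1 TPM with DMSO in OCI-Ly10. In TMD8 it had 2.13, 1.32 and 1.38 against 2.78, 2.02 and 3.15 TPM. It was lower in all 7 ABC pairs, with no overlap in OCI-Ly10 and 1 AZD8186 library of TMD8 above a DMSO library, at -0.45 ± 0.093, adjusted p = 0.00351 and had -0.037 ± 0.11 in the GCB lines, with a difference of 0.44 ± 0.15, adjusted p = 0.0529.

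In the translocon, through which new chains enter the ER, SEC61A1, the pore, was lower in the GCB lines at -0.31 ± 0.036, adjusted p = 1.00e-05, and SSR1 and SSR3 of the associated TRAP complex were lower there too, at -0.19 ± 0.045 and -0.24 ± 0.044. In the ABC lines these 3 had -0.12 ± 0.055, -0.069 ± 0.048 and 0.040 ± 0.048, none called. The small subunits SEC61B and SEC61G had -0.051 ± 0.059 and -0.045 ± 0.045 in the GCB lines and 0.23 ± 0.067, adjusted p = 0.0196 and 0.14 ± 0.050, adjusted p = 0.0524 in the ABC lines (edgeR). The call for SEC61B in the ABC lines was lost on log2(TPM + 1), where its value was 0.040 (adjusted p = 0.587), and without the 24 h OCI-Ly10 or the 24 h TMD8 pair (adjusted p = 0.0511 and 0.0525). SSR3 differed between the subtypes by -0.27 ± 0.061, adjusted p = 0.00520.

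**Figure D5:**
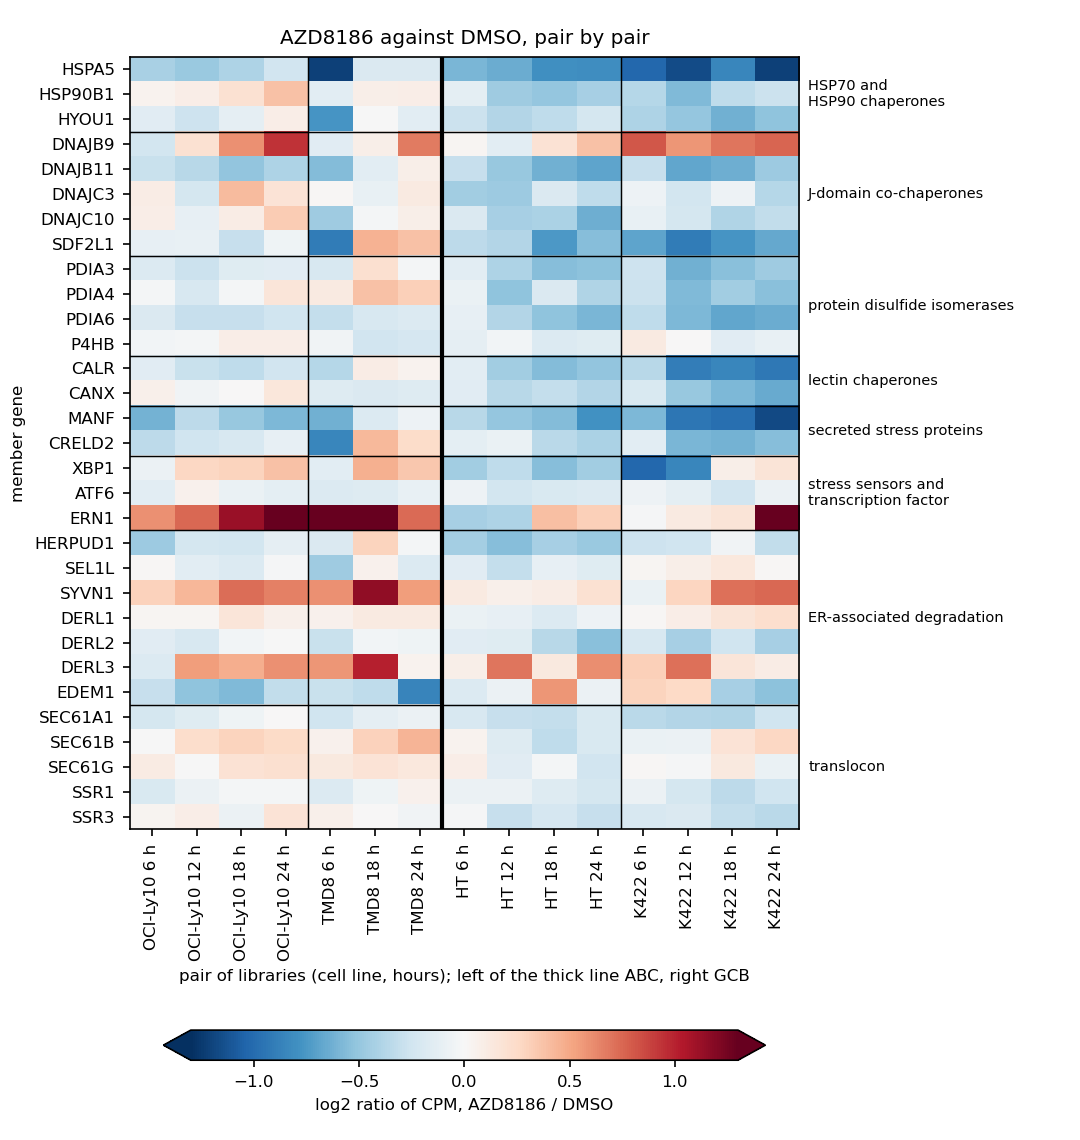
Log2 ratio of CPM, AZD8186 over DMSO, for the 31 members (1 line each, by role) in the 15 pairs (columns, ABC left and GCB right of the thick line), with blue below 0 and red above 0. In HT and K422 most members are blue at every time, 22 to 29 of 31 in a pair, and in the ABC lines ERN1 and SYVN1 are red in every pair.

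Line by line, 19 members were lower in HT (7.44% of 12910 genes were) and 19 in K422 (20.2%), 17 of them in both, while 0 and 2 were higher (9.17% and 22.7% of genes). OCI-Ly10 had 6 lower and 2 higher (11.5% and 11.3% of genes) and TMD8 had 1 lower and 4 higher (7.63% and 9.26%). In HT the smallest p were those of HERPUD1 (-0.48 ± 0.075, adjusted p = 0.000440), HSPA5 (-0.71 ± 0.12, adjusted p = 0.000701), DNAJB11 (-0.52 ± 0.088, adjusted p = 0.000715) and MANF (-0.55 ± 0.094, adjusted p = 0.000751). In K422 they were those of MANF (-0.92 ± 0.095, adjusted p = 8.38e-07), HSPA5 (-1.06 ± 0.12, adjusted p = 2.03e-06), CALR (-0.76 ± 0.097, adjusted p = 7.55e-06) and PDIA6 (-0.56 ± 0.073, adjusted p = 9.17e-06), and DNAJB9 (0.72 ± 0.15, adjusted p = 0.000659) and SYVN1 (0.42 ± 0.12, adjusted p = 0.00753) were higher. The lower members of HT and K422 thus shared MANF and HSPA5 among their leading 4. In OCI-Ly10 the smallest p of lower members were those of MANF (-0.51 ± 0.096, adjusted p = 0.00146), DNAJB11 (-0.39 ± 0.089, adjusted p = 0.00528), HERPUD1 (-0.26 ± 0.072, adjusted p = 0.0157) and PDIA6 (-0.26 ± 0.072, adjusted p = 0.0175), and ERN1 (0.999 ± 0.18, adjusted p = 0.00121) and SYVN1 (0.54 ± 0.12, adjusted p = 0.00441) were higher. In TMD8 HSPA5 was lower (-0.53 ± 0.14, adjusted p = 0.0151), and SYVN1 (0.77 ± 0.14, adjusted p = 0.00114), ERN1 (1.20 ± 0.26, adjusted p = 0.00426), PDIA4 (0.28 ± 0.089, adjusted p = 0.0401) and SEC61B (0.27 ± 0.089, adjusted p = 0.0465) were higher. The call for HSPA5 in TMD8 was lost without the 6 h pair. That for SEC61B in TMD8 was lost on log2(TPM + 1), at 0.051 (adjusted p = 0.596, limma). On that scale 14 members were lower in OCI-Ly10 and 15 in TMD8, with the median of all genes at -0.11 and -0.14. Of 12910 genes, 4248 were called there in OCI-Ly10, 4157 in TMD8 and 5152 in K422. Of these calls 84.3%, 88.2% and 60.4% were lower, against 50.4%, 45.2% and 47.1% on counts. With ribosomal genes left out of the TPM, 61.0% and 59.3% of calls were lower in OCI-Ly10 and TMD8. The count of lower members in HT fell to 12 without its 18 h pair and to 10 without its 24 h pair, and that in OCI-Ly10 to 3, 2 and 3 without its 12, 18 and 24 h pairs. Between lines of a subtype 1 member differed past the threshold: DERL1 was 0.12 ± 0.051 in K422 and -0.11 ± 0.051 in HT, a difference of 0.23 ± 0.072, adjusted p = 0.0478 (4.76% of genes higher and 5.83% lower in this contrast), which was not called on log2(TPM + 1), without a filter on low counts, or without any 1 of 7 pairs (each HT pair, and K422 at 12, 18 or 24 h). TMD8 and OCI-Ly10 differed in 0 members (0.310% of genes lower and 0.589% higher, or 34.5% of calls lower, against 56.9% on log2(TPM + 1)). At an unadjusted p under 0.05, 3 of 31 members did so, where 1487 of 12910 genes did, and DESeq2 called 0 members.

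The difference between the mean response of the 2 GCB lines and that of the 2 ABC lines was tested directly. Its p-values cover the scatter among libraries and not that among lines of a subtype. With 2 lines per subtype, a difference between subtypes and one between lines cannot be told apart. For 18 of 31 members the response was lower in the GCB than in the ABC lines and for 0 it was higher, where 7.42% of 12910 genes were lower and 8.40% higher, and the median difference was -0.24, beside 0.0078 over all genes. By role these 18 were HSPA5 and HSP90B1, DNAJC3, DNAJC10 and SDF2L1, PDIA3, PDIA4 and PDIA6, CALR and CANX, MANF, XBP1 and ERN1, HERPUD1 and SYVN1, and SEC61A1, SEC61B and SSR3. The smallest p were those of PDIA4, HSP90B1, CANX and SSR3. The number depended on scaling and on 2 pairs of libraries. On log2(TPM + 1) 5 members were lower, among them PDIA4, HSP90B1, XBP1 and ERN1. On that scale the median of all genes in this contrast was 0.10. There 3443 of 12910 genes were called, 17.4% of them lower against 46.9% on counts. With ribosomal protein and ribosomal RNA genes left out of the TPM 11 members were lower and 1 higher. In that setting 3123 of 12814 genes were called, and 30.2% of calls were lower. Relative to the median of all genes, the median difference of the members was -0.25 on counts, -0.20 on log2(TPM + 1) and -0.23 without those genes. Without the 18 h TMD8 pair 9 members were called and without the 24 h TMD8 pair 11.

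Read against the response element letters described above, all 10 members with ERSE or ERSE-II letters were lower in the GCB lines, with a median log2 fold change of -0.41, and 2 of the 10 were lower in the ABC lines, with a median of -0.14. Of the 18 members with a window and without these letters, 10 were lower and 2 higher in the GCB lines, with a median of -0.17, and 3 were lower and 3 higher in the ABC lines, with a median of -0.021. Of 8557 genes outside the list without these letters, 2048 were lower and 2210 higher in the GCB lines. HSPA5 and SDF2L1, whose sequences are printed above, had the largest decreases of the 10 in the GCB lines. Members with CCACG but no ERSE, ERSE-II or UPRE letters went both ways. SYVN1 and DNAJB9 were higher, MANF, PDIA4, SEC61A1, DNAJC3 and SSR1 were lower, and SEL1L, EDEM1 and SEC61G were not called. MANF, at -0.74, had a larger decrease than SDF2L1. Of 18 other genes with ERSE or ERSE-II letters that were tested, 2 were lower and 7 higher in the GCB lines, with a median of 0.027. These are descriptions without a test.

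Time in treatment was compared as the response at 18 and 24 h against that at 6 and 12 h. No member passed the threshold in either subtype, where 0% of all genes did with edgeR (1356 genes in the ABC and 759 in the GCB lines had an unadjusted p under 0.05, and DESeq2 called 173 and 8 genes and 0 members). In the ABC lines 8 members had an unadjusted p under 0.05, all of them higher later, and the median of the members was 0.18, beside -0.0011 over all genes. The largest were DNAJB9, CRELD2 and SDF2L1, at 0.66 ± 0.22, 0.55 ± 0.18 and 0.49 ± 0.22. These 8 members had positive values on log2(TPM + 1) too, from 0.035 to 0.36, while the median of the members was -0.014 and that of all genes -0.15. The 6 h TMD8 pair, with a member median of -0.18, stood below the later TMD8 pairs, at 0.055 and 0.050. In the GCB lines the median was -0.091, with -0.14 and -0.19 in the 6 h pairs of HT and K422 and -0.26 to -0.33 in the later ones, and XBP1 had 0.45 ± 0.19, adjusted p = 0.713. In the 15 DMSO libraries alone, 24 h against 6 h of culture was called lower for 1 member, PDIA6, at -0.25 ± 0.062, adjusted p = 0.0251 (edgeR), where 3.73% of 12596 genes were lower and 2.37% higher. On log2(TPM + 1) 0 members were lower and 8 higher, with the median of all genes at 0.16. On that scale 2931 of 12596 genes were called, 2.39% of them lower against 61.2% on counts. With ribosomal genes left out of the TPM 1 member was higher. There 778 of 12500 genes were called, and 11.1% of calls were lower. PDIA6 was not called without any of 5 libraries: K422 at 24 h, OCI-Ly10 at 6, 18 or 24 h, or TMD8 at 24 h.

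Genes of neighbouring pathways, listed by function, were counted in the same tests. In the ABC lines these counts depended on scaling, as those of the members did. Of all genes tested, 13.8% were lower and 15.3% higher in the ABC lines, and 23.5% and 25.9% in the GCB lines. A count near these shares does not set a list apart. The arm of the sensor PERK, which slows translation, had 5 of 12 genes lower and 0 higher in the ABC lines, and 5 of 11 lower and 3 higher in the GCB lines. ATF4, its transcription factor, was lower in both (-0.45 ± 0.086, adjusted p = 0.00199 in ABC and -0.33 ± 0.051, adjusted p = 0.000119 in GCB lines, edgeR), as were CHAC1 in the ABC lines (-1.36 ± 0.18) and TRIB3 in the GCB lines (-0.81 ± 0.13), both targets of ATF4. EIF2AK3, which encodes PERK, was higher in the GCB lines (1.17 ± 0.10, adjusted p = 1.19e-06), as was PPP1R15A (0.30 ± 0.097), a phosphatase subunit that ends its signal. Of 25 other ER folding enzymes 4 were lower and 5 higher in the ABC lines and 10 lower and 5 higher in the GCB lines, with CALU and TMX2 lower (-0.47 ± 0.046 and -0.38 ± 0.045) and SUMF2 and ERO1B higher (0.41 ± 0.043 and 2.51 ± 0.47) in the GCB lines. PRDX4 and FKBP11 were lower (-0.30 ± 0.068 and -0.20 ± 0.052) and SELENOF and SUMF2 higher (0.21 ± 0.052 and 0.27 ± 0.071) in the ABC lines. Of 13 other sensors and proteases tested 1 was lower (ZBTB17, -0.21 ± 0.068) and 3 higher in the ABC lines and 2 lower (TRAF2, -0.41 ± 0.085, and RTCB, -0.19 ± 0.041) and 5 higher in the GCB lines. ATF6B, the relative of ATF6, was higher in both (0.35 ± 0.079 and 0.25 ± 0.038), and CREB3L2 (0.62 ± 0.12) and CREB3L4 (1.10 ± 0.11), transcription factors of the same membrane-bound kind, were higher in the ABC and the GCB lines, in that order. The ABC counts on log2(TPM + 1) were 9 lower and 0 higher in the PERK arm, 10 lower and 0 higher among the folding enzymes, and 5 lower and 1 higher among the sensors and proteases.

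The other branches of the secretory pathway had more genes lower than higher in the GCB lines, and not in the ABC lines on counts. Of all genes tested, 13.8% were lower and 15.3% higher in the ABC lines, and 23.5% and 25.9% in the GCB lines. N-glycosylation had 13 of 30 genes lower and 2 higher there and 0 of 29 lower and 3 higher in the ABC lines, with ALG5 and UAP1 lower (-0.35 ± 0.060 and -0.26 ± 0.044) and PRKCSH and OST4 higher (0.17 ± 0.045 and 0.20 ± 0.061) in the GCB and OSTC and ALG2 higher (0.26 ± 0.067 and 0.26 ± 0.079) in the ABC lines. ER to Golgi transport had 15 of 29 lower and 2 higher in the GCB lines, with TMED2 and SAR1A at -0.32 ± 0.048 and -0.33 ± 0.051 and SEC24D and COPE at 0.43 ± 0.091 and 0.19 ± 0.049, against 1 lower (TMED5, -0.20 ± 0.069) and 1 higher (COPE, 0.19 ± 0.057) of 29 in the ABC lines. Tested directly, the response was lower in the GCB lines for 5 of 30 glycosylation and 5 of 29 transport genes and higher for 0 and 1. Of all genes, 7.42% were lower and 8.40% higher in that test. Other ERAD genes had 9 lower and 7 higher of 25 in the GCB lines (UBE2G2 -0.38 ± 0.049, AUP1 -0.29 ± 0.049 and OS9 0.28 ± 0.052) and 2 lower and 6 higher in the ABC lines (AUP1 -0.21 ± 0.054, TMUB1 -0.20 ± 0.055, MARCH6 0.28 ± 0.072 and NGLY1 0.20 ± 0.052). Other translocation and signal peptidase genes had 9 lower and 4 higher of 23 in the GCB lines (SRPRB -0.52 ± 0.045 and GET4 -0.30 ± 0.048) and 1 lower and 6 higher in the ABC lines (SRP54 -0.23 ± 0.061), with TRAM2 and SSR2 higher in both, at 1.03 ± 0.12 and 0.27 ± 0.057 in GCB and 0.55 ± 0.094 and 0.34 ± 0.078 in ABC lines. The ABC counts turned on log2(TPM + 1) to more lower than higher in these sets, with 12 lower and 0 higher in N-glycosylation, 14 and 0 in ER to Golgi transport, 12 and 0 among other ERAD genes and 9 and 1 among other translocation genes. With ribosomal genes left out of the TPM they were 0 and 1, 2 and 1, 4 and 4, and 2 and 5. In the GCB lines translocation had 6 lower and 7 higher and other ERAD 7 lower and 8 higher with those genes left out, so the balance of these sets turned there. In the test of the difference, 2 glycosylation and 0 transport genes were lower and 2 and 1 higher on log2(TPM + 1).

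Cytosolic heat shock proteins, which fold proteins outside the ER, were mostly lower in both subtypes when both lines of a subtype were fitted together. In these fits 15 of 18 were lower in the ABC and 15 of 19 in the GCB lines, and 0 were higher. On log2(TPM + 1) 18 and 16 were lower and 0 higher. Such pooled counts do not show that each line alone had the decrease. In the test of the difference 1 of 19 was lower. HSPA8 and HSPA1B had -0.72 ± 0.13 and -0.74 ± 0.15 in the ABC lines, and FKBP4 and DNAJB1 had -0.71 ± 0.069 and -0.61 ± 0.069 in the GCB lines. Of the plasma cell genes 2 of 12 were lower and 6 higher in the ABC lines, where 13.8% and 15.3% of all genes were. In the GCB lines 5 of 9 were lower and 3 higher, where 23.5% and 25.9% of all genes were. TNFRSF17 (BCMA) and JCHAIN were higher in both, at 1.59 ± 0.23 and 1.57 ± 0.27 in ABC and 1.29 ± 0.13 and 1.57 ± 0.24 in GCB lines, while SDC1 and TXNDC5 were lower in the GCB lines (-1.40 ± 0.10 and -0.48 ± 0.067) and FKBP11 and IRF4 in the ABC lines (-0.20 ± 0.052 and -0.24 ± 0.084). SDC1 reached at most 0.02 TPM in HT, against 8.07 to 30.65 TPM in K422, so its decrease rested on K422. The list of 12 includes TXNDC5, FKBP11 and SEC11C, and FKBP11 was counted among the other ER folding enzymes above too. B-cell markers moved with treatment too, with 1 of 6 lower and 5 higher in the ABC lines, where they summed to 1442 to 2338 TPM with AZD8186 and 1218 to 1558 TPM with DMSO, and 2 lower and 2 higher in the GCB lines (3 lower and 1 higher on log2(TPM + 1)), where they summed to 2265 to 3258 TPM with AZD8186 and 2172 to 2691 TPM with DMSO. Of 3 stroma markers tested VIM and COL3A1 were lower and PECAM1 higher in the ABC lines, with sums of 146 to 426 TPM with AZD8186 and 247 to 543 TPM with DMSO, nearly all of it VIM. COL3A1 was at 0 in TMD8 and reached at most 0.94 TPM in OCI-Ly10. All 3 tested in the GCB lines, DCN, VIM and PECAM1, were higher, with sums of 1.36 to 194 TPM against 0.58 to 128 TPM. VIM reached at most 0.65 TPM in HT and 0.88 TPM in K422. DCN had 0.17 to 0.37 TPM in HT and 98.1 to 187 TPM in K422, so the larger sums were mostly DCN in K422. Of the T-cell markers CD4 was higher in the ABC lines (1 tested, not called on log2(TPM + 1)) and CD3E and CD3G in the GCB lines (4 tested), with sums of 0.82 to 3.65 TPM against 1.77 to 2.61 TPM and 3.73 to 182 TPM against 3.60 to 184 TPM. Neither of 2 myeloid markers tested in the ABC lines was called. The part of these markers in the results for the ER genes was not tested.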

How the data were processed

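RNA-seq libraries from 4 DLBCL lines were analysed from the gene tables the authors deposited, 1 per library, with 21112 genes each. Per the labels, HISAT2, HISAT and RSEM are named with GRCh38.p12, without versions. The tables hold expected counts, which the authors deposited as RSEM's estimates per gene and which were rounded to whole numbers here. The TPM values, scaled by the authors per gene length and to each library total before they were deposited, gave the levels, and the FPKM values the authors deposited beside them were not used. Sources used here give no mapping rate.

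Genes with low counts were removed by filterByExpr, libraries were scaled by TMM, and log2 fold changes were tested with edgeR 4.0.16 (R 4.3.3, quasi-likelihood F test, Benjamini-Hochberg over all genes tested, threshold 0.05). Every adjusted p comes from that fit over all genes unless another tool is named, and ± gives the SE of the log2 fold change. The subtypes were fitted with cell line and time as covariates. Single lines and differences of responses were fitted over all 30 libraries with the pair as a block, late against early response with the pair as a block within a subtype, and culture time over the 15 DMSO libraries with cell line as covariate. Ratios within a pair are differences of log2 CPM values (edgeR, 2 as prior count). The scripts were tested on simulated data first. Pairs share line and time per the labels, and the deviations of the 2 libraries of a pair correlated at -0.027 to 0.38, with 13 of 15 highest with their own partner. Alternatives were DESeq2 1.42.0, its size factors in edgeR, no filter, a threshold of 0.01, limma 3.58.1 on log2(TPM + 1), leaving out 86 ribosomal protein and 20 ribosomal RNA genes, the pair block, and leaving out each pair (or DMSO library) in turn. TPM rescaled without those ribosomal genes was added after seeing the data.

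The members and the lists of neighbouring genes were chosen with earlier results of these data known. Members given with adjusted p were the 4 of smallest p per direction past the threshold in each comparison, the smallest p of each role in the ABC and the GCB lines, and XBP1, ATF6 and ERN1. Of the pathway lists the 2 genes of smallest p per direction past the threshold were named. Levels in every library were given for XBP1 and for the members of smallest p in the ABC lines, the GCB lines and their difference. Levels of ERN1, MANF, EDEM1 and DNAJB9 and the values of other members were added after they were seen. Promoter windows come from RefSeq (GRCh38.p14) and gene positions from GENCODE 29 on GRCh38.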

Additional observations from a re-analysis of the deposited data

Results flagged for a closer look

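In 62 groups of pairs (each member in the 7 ABC and the 8 GCB pairs) 1 pair stood apart from the others by Dixon's criterion in 5, where chance gives about 1 in 20. HSPA5 had a log2 ratio of -1.22 in the 6 h TMD8 pair, with -0.48 to -0.19 in the other ABC pairs. HYOU1 had -0.77 in the same pair, with -0.27 to 0.086 in the others. ATF6 had 0.058 in the 12 h OCI-Ly10 pair, with -0.18 to -0.082 in the others. ERN1 had 1.55 in the 24 h K422 pair, with -0.43 to 0.39 in the other GCB pairs, and SSR3 had -0.012 in the 6 h HT pair, with -0.35 to -0.19 in the others.

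The response to AZD8186 differed between the subtypes in 18 members when the difference itself was tested (edgeR, adjusted p under 0.05), each with a negative log2 difference, GCB minus ABC. The values were HSPA5 -0.43, HSP90B1 -0.48, DNAJC3 -0.34, DNAJC10 -0.32, SDF2L1 -0.57 among chaperones and co-chaperones. They were PDIA3 -0.34, PDIA4 -0.51, PDIA6 -0.24, CALR -0.43, CANX -0.33, MANF -0.34 among the isomerases, lectins and secreted factors. They were XBP1 -0.65, ERN1 -0.87, HERPUD1 -0.23, SYVN1 -0.38, SEC61A1 -0.17, SEC61B -0.28, SSR3 -0.27 among the sensors, ERAD and translocon genes. For SYVN1 the negative value was a smaller increase in the GCB lines, and for SEC61B and ERN1 a higher level in the ABC lines alone was called. Between HT and K422 the response of DERL1 differed by 0.23, K422 minus HT.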

How the results depend on the processing

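Leaving out the ribosomal genes from the counts, or using DESeq2's size factors in edgeR, changed no count of members by over 1.5 times. At an adjusted p of 0.01, 2 members were higher and 1670 genes called in the ABC lines. On log2(TPM + 1), 17 members were lower and 2 higher in the ABC lines (4899 of 11419 genes called). In OCI-Ly10 14 were lower and in TMD8 15 lower and 2 higher (4248 and 4157 of 12910 genes called). On that scale 5 members were lower in GCB minus ABC (3443 genes) and ATF6 turned to 0.060, 0 were higher in K422 minus HT, 408 genes were called in TMD8 minus OCI-Ly10, and culture time called 0 members lower and 8 higher (2931 genes). With TPM rescaled without ribosomal genes, 5 members were lower in TMD8, 11 lower and 1 higher in GCB minus ABC (3123 genes; ATF6 0.015), 370 genes were called in TMD8 minus OCI-Ly10, and culture time gave 0 lower and 1 higher. With DESeq2, 5 members were lower in TMD8, 1 was higher in GCB minus ABC, 235 genes were called in TMD8 minus OCI-Ly10, 173 and 8 in the late against early comparisons of the ABC and GCB lines, and culture time gave 3 lower and 1 higher. Without a filter, 1 member was higher in GCB minus ABC, 0 in K422 minus HT, 32 genes were called late against early in the ABC lines, and 2 members were lower with culture time. The cause of these changes was not tested.

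The pairing of libraries mattered for few calls. Without the pair as a replicate block, 0 members were lower and 2 higher in TMD8, and K422 minus HT had 0 members higher and 890 genes. With the replicate block, XBP1 passed the threshold in the ABC lines (0.23, adjusted p = 0.0330, edgeR), and no count of members in the ABC or GCB lines moved by over 1.5 times.

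Leaving out 1 pair in turn gave 2 to 6 members higher (2 without OCI-Ly10 24 h) and 2094 to 3836 genes in the ABC lines, and -0.0070 to 0.27 for ERN1 in the GCB lines. It gave 10 to 17 members lower in HT (933 to 1769 genes), 1 to 3 higher in K422 (1 without 18 or 24 h), 2 to 4 lower and 2 to 5 higher in OCI-Ly10 (1171 to 3182 genes; 5 without 6 h), and 0 to 3 lower and 2 to 5 higher in TMD8 (964 to 1957 genes; 0 lower without 6 h, 3 lower and 2 higher without 18 h). GCB minus ABC had 9 to 22 members lower and 0 to 1 higher, K422 minus HT 0 to 3 lower and 0 to 2 higher (691 to 1876 genes), with 0 higher without any pair but K422 6 h, and TMD8 minus OCI-Ly10 0 to 2 higher (33 to 333 genes; 2 without TMD8 6 h). Late against early in the ABC lines called 0 to 2 genes. Leaving out 1 DMSO library gave 0 to 3 members lower and 0 to 1 higher with culture time (50 to 864 genes). ERN1, with as few as 18 counts in a library, is the member most limited by depth.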
